A study of Aedes aegypti with 3 samples.

Results

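Chromosome 1 is the sex-determining chromosome of the yellow fever mosquito *Aedes aegypti*, and its open chromatin outside the M/m locus made up 29505 of the 128307 FAIRE peaks of the AaegL5 list, or 23.0%. Members were all peaks labelled chromosome 1, apart from 151 that reach into the M/m locus (positions 150716898 to 152949239 of AaegL5). FAIRE-seq was done on whole embryos of the wild-type strain Liverpool-IB12 (LVP-IB12), collected 49 to 51 h after egg laying, in 3 replicates. Embryos of both sexes were mixed, there was no treatment and no second group, and the authors pooled the replicates before peak calling without a control. Hence no value here has a spread between replicates, and every interval and p below covers counting error within 1 list only. Neighbouring peaks are not independent, so these p-values are too small. In such a mixture, a site open in few cells and a site weakly open in all cells cannot be told apart.

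FAIRE (formaldehyde-assisted isolation of regulatory elements) recovers DNA that is not held by crosslinked protein, so that reads gather where nucleosomes are sparse, as at promoters and enhancers. *Aedes aegypti* has no separate X and Y chromosomes. Sex follows from a dominant male-determining locus on chromosome 1, carried on the M but not on the m form of that chromosome, and recombination is reduced around it. Both sexes carry chromosome 1, and differences between its M and m forms outside the locus were not examined here.

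The list holds for each peak its place and its strength at the summit, as a −log10 p and a fold enrichment over the background. In the copy used here each digit 3 reads as a 5, and the possible readings were worked out from the order of the peaks and from the arithmetic of the peak caller. For 74.3% of members the start is known to within 25 bp, and for 98.0% to within 2500 bp. Values that need positions are means over 20 readings. The strengths also gave the number of reads at each summit and the local background, which is the larger of the genome mean (37.7 reads per 550 bp, or 85.1 M reads in all) and the level in the surrounding 10 kb. Lengths run to the last peak or RefSeq gene.

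FAIRE peaks were sparser on chromosome 1 than on the other chromosomes. Outside the M/m locus there were 95.6 peaks per Mb over 308.6 Mb, against 111.5 on chromosome 2 and 108.4 on chromosome 3. The ratio to chromosomes 2 and 3 together was 0.869 (exact binomial test, two-sided, p = 4.97e-102, adjusted p = 5.46e-101 over 11 comparisons by the Benjamini-Hochberg method). Peaks covered 33.6 Mbp or 10.9% of the chromosome, and the open digits allow 10.5 to 14.3%. The covered share was 12.6% on chromosomes 2 and 3 together (Mann-Whitney test over 31 against 88 windows of 10 Mb, two-sided p from 100000 permutations of the windows, p = 0.00162, adjusted p = 0.00255). The lower coverage went with fewer peaks and not with narrower ones, since the median width was 967 bp on chromosome 1, 972 bp on chromosome 2 and 974 bp on chromosome 3.

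The peaks that chromosome 1 did have were slightly stronger. Their −log10 p ran from 2.16 to 247.7 with a median of 7.66 and quartiles of 5.57 and 11.3, and the fold enrichment had a median of 1.89 and a maximum of 9.24. Strong peaks, those in the top 10% of the whole list with a −log10 p of at least 17.4, numbered 3174 of 29505 members or 10.8%, where 10.0% of all peaks of the list are strong by definition. On chromosomes 2 and 3 the share was 9.61% (odds ratio 1.13, Fisher's exact test, two-sided, p = 1.03e-08, adjusted p = 2.83e-08). A −log10 p of at least 5 was reached by 24405 members or 82.7%, near the 82.0% of the whole list. The median −log10 p was 7.54 on chromosomes 2 and 3 together (the same permutation test, p = 0.0281, adjusted p = 0.0309). Against chromosome 3 alone this difference did not pass (permutation p = 0.158).

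Chromosome 1 summits did not hold more reads. The median was 87 reads, with 90 on chromosome 2 and 89 on chromosome 3. What was lower was the local background, with a median of 1.13 times the genome mean on chromosome 1, 1.21 times on chromosome 2 and 1.18 times on chromosome 3. For 34.3% of members the background was the genome mean itself, against 27.4% and 29.5%. The local background enters both the fold enrichment and the −log10 p, and its part in the difference in strength was not tested.

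Peak density was far from even along the chromosome. Windows of 10 Mb ranged from 63.2 to 133.5 peaks per Mb, a 2.11-fold range, against 1.68-fold on chromosome 2 and 1.71-fold on chromosome 3. The coefficient of variation over these windows was 0.230, 0.131 and 0.130 in the same order. From 10 to 80 Mb each window held 63.4 to 76.0 peaks per Mb. Density then rose to 102.0 at 90 to 100 Mb and to 133.3 at 140 to 150 Mb, just before the locus. It was 133.5 in the rest of the window from 150 to 160 Mb and 132.2 at 170 to 180 Mb, stayed near 100 per Mb from 230 to 280 Mb, and dropped to 67.8 at 290 to 300 Mb and 63.2 at 300 to 310 Mb. The first 10 Mb, at 87.2 peaks per Mb, were denser than the stretch that follows. A dense middle was not particular to the chromosome with the sex-determining locus. Chromosome 2 had its highest density, 137.1 peaks per Mb, at 220 to 230 Mb and its lowest, 81.5, at 450 to 460 Mb. On chromosome 3 the highest density was 141.1 peaks per Mb at 190 to 200 Mb and the lowest 82.6 at 360 to 370 Mb. The median local background also peaked in these windows, at 1.54 times the genome mean on chromosome 2 and 1.52 times on chromosome 3, against 1.44 times at 150 to 160 Mb of chromosome 1.

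**Figure D1:**
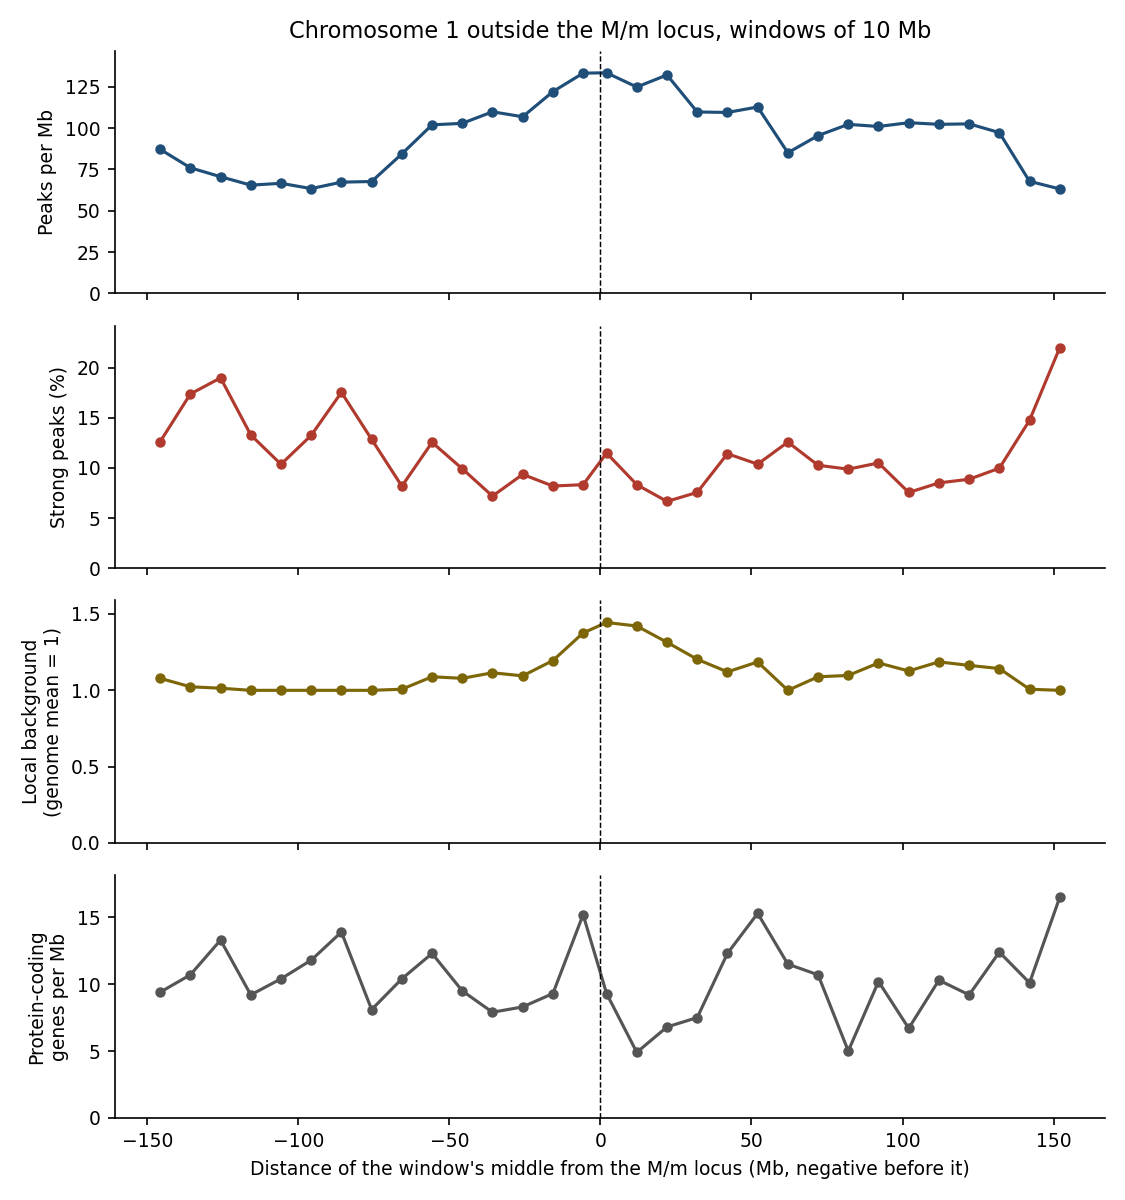
Values of 31 windows of 10 Mb along chromosome 1 against the distance of each window's middle from the M/m locus (dashed line). From top to bottom, the panels give peaks per Mb, the share of strong peaks in %, the median local background of the peaks relative to the genome mean, and protein-coding genes per Mb. Density and local background are highest beside the locus, while the share of strong peaks is highest in sparse windows, up to 22.0%.

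Stretches before and after the locus differed. Before it there were 13376 peaks at 88.7 per Mb and after it 16129 peaks at 102.2 per Mb (ratio 0.869, exact binomial test, two-sided, p = 1.86e-33, adjusted p = 1.02e-32). Strong peaks made up 11.4% before and 10.3% after (odds ratio 1.12, Fisher's exact test, p = 0.00253, adjusted p = 0.00348). Median summit reads were 86 before and 88 after, at median local backgrounds of 1.08 and 1.16 times the genome mean. The Mb directly before the locus was the densest step of distance examined, with 160 peaks (exact 95% Poisson interval 136.2 to 186.8 per Mb), of which 6.25% were strong. The Mb directly after it held 132 peaks (110.4 to 156.5 per Mb). There 29 peaks or 22.0% were strong (exact binomial interval 15.2 to 30.0%), and the median −log10 p was 10.2 against 6.74 in the Mb before. The median local background was 1.40 times the genome mean in the Mb after and 1.73 times in the Mb before. The part of the background in these differences was not tested. From 1 to 5 Mb after the locus the strong share was 10.9% (8.42 to 13.9%). From 140 Mb after the locus to the end of the chromosome it was 20.1% (17.8 to 22.6%).

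Dense windows held many peaks that were weak by −log10 p rather than more strong ones. The 9 windows under 80 peaks per Mb had strong shares of 10.4 to 22.0%, and the 5 windows over 120 peaks per Mb had 6.66 to 11.5%. Counted per Mb, strong peaks ran from 6.90 to 13.9 in the former and from 8.80 to 15.3 in the latter, so these ranges overlap. By reads the peaks of dense windows were not lower, with median summit reads of 89 to 101 against 81 to 87 in the sparse windows. The median local background was 1.20 to 1.44 times the genome mean in the dense windows and 1.00 to 1.02 times in the sparse ones. Its part in the lower strong share was not tested. Over the 31 windows, density followed the local background (Spearman's rho 0.91) and went against the strong share (rho −0.72), while strong peaks per Mb showed little relation to density (rho 0.08). These correlations describe neighbouring windows of 1 library pool and carry no test, and density and background are both counted from the same reads. On chromosomes 2 and 3 the rho of density with background was 0.89 and 0.86.

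Gene density did not trace the profile. Protein-coding genes ran from 8.10 to 16.5 per Mb in the 9 sparse windows and from 4.90 to 15.2 per Mb in the 5 dense ones. The window from 300 to 310 Mb held the most protein-coding genes (165) together with the fewest peaks (632) and the highest share of strong peaks (22.0%). In contrast, the window from 160 to 170 Mb held 1249 peaks and 49 protein-coding genes. The rho over the 31 windows was −0.36 for density of peaks with protein-coding genes and 0.50 for strong peaks per Mb with protein-coding genes. The last 0.822 Mb of the chromosome held 114 peaks, 24 of them strong (21.1%), with a median width of 1263 bp. This was not particular to chromosome 1. In the last 4.42 Mb of chromosome 2 and the last 9.78 Mb of chromosome 3 the strong shares were 17.2% and 16.4%. Median widths there were 1050 and 1086 bp.

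Most gaps between neighbouring peaks were somewhat longer on chromosome 1. The lower quartile was 2874 bp against 2653 bp on chromosome 2 and 2642 bp on chromosome 3. The median gap was 6263 bp against 5860 bp on chromosome 2 and 5902 bp on chromosome 3, and the 90th percentile was 19573 bp against 16294 and 16857 bp. Gaps of at most 2 kb made up 20.3% (5979 of 29503) against 21.3% on the other chromosomes together (odds ratio 0.941, Fisher's exact test, two-sided, p = 2.43e-04, adjusted p = 4.45e-04). The gap coefficient of variation was 1.32, against 1.06 on chromosome 2 and 1.22 on chromosome 3. Lengths of successive gaps were nearly unrelated (rho 0.01), so that short and long gaps did not alternate. The −log10 p of neighbours went together weakly (rho 0.11 over 29503 pairs), as it did on chromosomes 2 and 3 (0.11 on each).

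Crowded peaks were weaker by −log10 p. Among neighbours within 2 kb of each other, 6.52% of peaks were strong and the median −log10 p was 7.03. The strong share was 12.0% for neighbours 5 to 10 kb apart, 13.6% for 20 to 50 kb and 17.4% for gaps over 50 kb, where the median −log10 p was 8.50. Within 50 kb of a member there were 11 other peaks in the median, with quartiles of 8 and 13 and a maximum of 25.

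**Figure D2:**
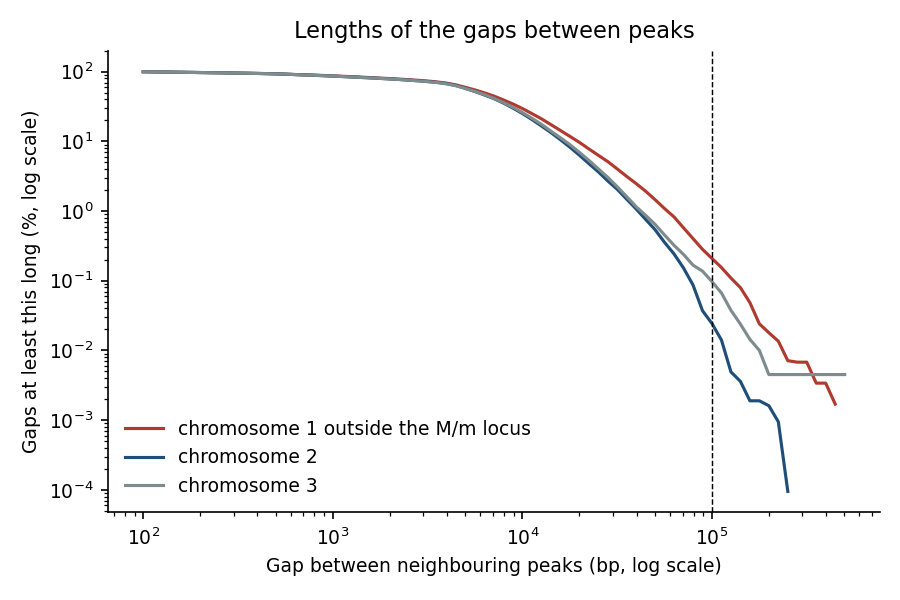
Share of gaps between neighbouring peaks, in % on a log scale, that are at least as long as the value on the x axis, in bp on a log scale, for chromosome 1 outside the M/m locus, chromosome 2 and chromosome 3. Chromosome 1 already lies higher at 5623 bp, with 54.8% against 51.9% on chromosome 2 and 52.2% on chromosome 3. The curves part further towards 100 kb. At 100 kb (dashed line) chromosome 1 lies at 0.209% of gaps, chromosome 3 at 0.0972% and chromosome 2 at 0.0243%.

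Long stretches without peaks were more frequent on chromosome 1. Deserts, gaps of at least 100 kb, numbered 62 among 29503 gaps (59 to 64 over the 20 readings), against 13 on chromosome 2 and 43 on chromosome 3. Against both together the odds ratio came to 3.66 (two-sided Fisher's exact test, p = 6.44e-12, adjusted p = 2.36e-11). It was 8.57 against chromosome 2 alone (p = 9.69e-17) and 2.17 against chromosome 3 alone (p = 8.55e-05, both by the same exact test), comparisons that were added after the values had been seen. The longest gap of the 3 chromosomes, however, was on chromosome 3, with 588073 bp against 448462 bp on chromosome 1 and 213462 bp on chromosome 2 as means over readings. Gaps of at least 50 kb together took up 33.0 Mb or 10.7% of the length of chromosome 1, 4.01% of chromosome 2 and 5.37% of chromosome 3. With a mapping quality filter and no control, sequence that holds no peak and sequence that reads cannot be placed on cannot be told apart.

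Deserts gathered in the sparse stretches. Of the 60 that stood in at least 10 of the 20 readings, 28 lay between 30 and 90 Mb and 11 between 290 and 300 Mb. Of these 60, 58 reach 100 kb under every reading of their edges. Their median length was 129.1 kb. The peaks that edge them had a median −log10 p of 9.53, and 27 of 116 or 23.3% were strong (exact binomial interval 15.9 to 32.0%), against 10.8% of all members. The median local background of these edge peaks was the genome mean itself, against 1.13 times the genome mean for all members. The part of this lower background in their strength was not tested.

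**Figure D3:**
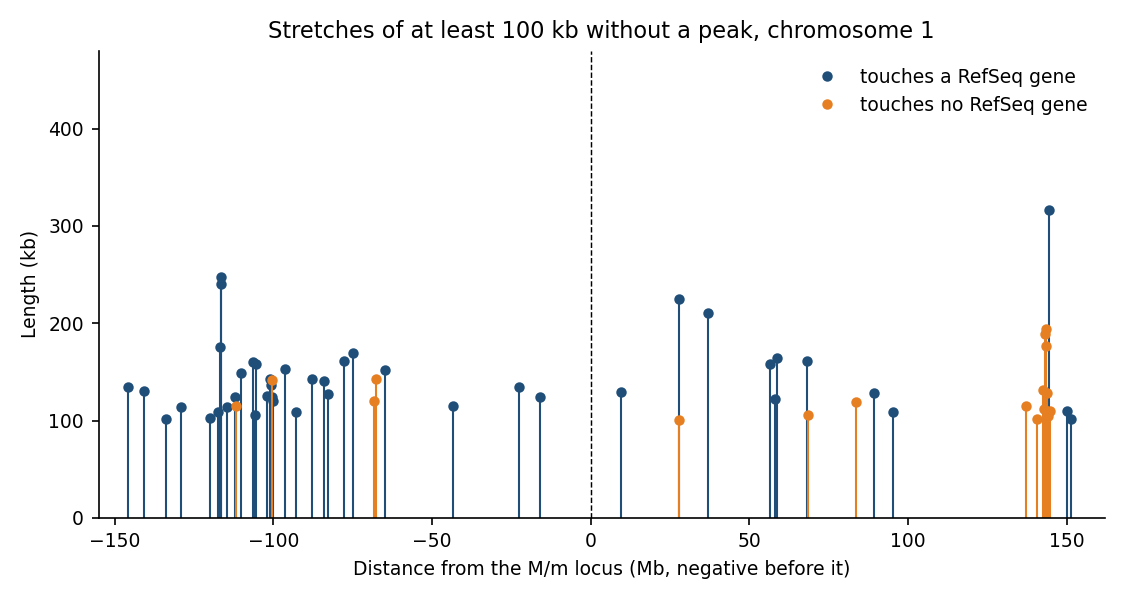
Length in kb of the 60 deserts of chromosome 1 (y axis) against their distance from the M/m locus in Mb (x axis, locus at the dashed line). Each stem is 1 desert, blue where it touches a RefSeq gene and orange where it touches none (17 deserts). Stems crowd about 116 Mb before and 144 Mb after the locus. The stems of 240.0 and 247.0 kb about 116 Mb before the locus cannot both hold, since the peak between them is open by 200 kb. In each reading the longest gap of chromosome 1 lies there and is longer than any stem drawn.

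The longest deserts came in groups. The stretch from 296055244 to 297766008 (1711 kb) held 4 of the 10 longest and only 22 peaks. It holds no protein-coding gene and 2 lncRNA genes in RefSeq. Its longest desert ran for 316.3 kb, from 297449710 to 297766008, around the lncRNA gene LOC110674196, and between a peak with a −log10 p of 33.3 and another of 11.3. The window from 296 to 297 Mb had 14 peaks, and 6 of them were strong.

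A further 3 of the 10 longest deserts lay side by side between 33912971 and 34835725, where 922.8 kb held 4 peaks. Here genes were present. From 34147895 to 34387871 there were 4 protein-coding genes, LOC110674851, LOC110674852, LOC110674853 and LOC110674854, without a peak. The place of the peak after them is open by 200 kb. Depending on where it lies, the desert around these genes is 240.0 or 440.0 kb long, and the desert that follows is between 245.0 and 467.0 kb long and shorter where the other is longer. In each reading the longest gap of chromosome 1 was one of this pair. The window from 34 to 35 Mb was the sparsest of the 309 windows of 1 Mb, with 11 peaks beside 15 protein-coding and 7 lncRNA genes, and the local background of all 11 was the genome mean.

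Beyond these groups, the deserts at 180951437 to 181176694 (225.3 kb) and 189967889 to 190178240 (210.4 kb) held 5 and 12 whole genes. Among them were LOC5565134 and LOC5566202 in the former and LOC5577517, LOC5577516 and LOC5577515 in the latter. The desert of 169.6 kb from 75930793 to 76100421 lay wholly inside the protein-coding gene LOC5574758. In all, 17 deserts lay inside a gene span and 24 held at least 1 whole gene. Of 3181 protein-coding genes outside the locus, 59 (1.85%) lay wholly in a desert, while the 60 deserts took up 2.75% of the length. Both values take 240.0 and 247.0 kb for the pair of deserts beside the peak that is open by 200 kb. In each reading 1 of that pair is longer. As a mean over readings, gaps of at least 100 kb took up 2.88% of the length. The 59 genes came to 6.96 per Mb of the 60 deserts. The 10.3 protein-coding genes per Mb over the chromosome outside the locus count every gene. Genes that only reach into a desert or surround it are missing from the former value, so the gene densities cannot be compared.

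Clusters were rare. Runs of at least 5 peaks with every gap at most 2 kb held 26 members in the mean (15 to 36 over readings), or 0.0881%, against 0.0997% of peaks on chromosomes 2 and 3. This difference was within counting error (odds ratio 0.884, Fisher's exact test, two-sided, p = 0.669, adjusted p = 0.669). When gaps of up to 5 kb were allowed, 7.84% of members against 9.32% of other peaks lay in such runs (odds ratio 0.827, Fisher's exact test, p = 2.58e-15).

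All 6 clusters found in at least 10 of the 20 readings lay after the locus, and each held 5 peaks. The nearest to the locus, from 153301399 to 153312065 and 0.353 Mb beyond it, was also the strongest. Its peaks had −log10 p values of 15.6 to 72.9, and 4 of 5 were strong at a local background of 3.60 times the genome mean. It overlaps no RefSeq gene. The other five were weaker, with medians of 5.84 to 8.81. The clusters at 156401719 to 156410180 and 160844280 to 160850773 lay in the spans of the protein-coding genes LOC5571583 and LOC5580226. The cluster at 206726561 to 206733641, found in 11 of 20 readings, spanned the tRNA genes Trnah-gug and Trnag-ucc, which carry histidine and glycine, and the protein-coding genes LOC5572590 and LOC5572577.

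Longer, looser runs lay inside genes. With gaps of up to 5 kb, 4 runs of at least 10 peaks were found in all 20 readings, within the spans of LOC5569913, LOC5568281, LOC5567765 and LOC5567414. The longest of them held 11 peaks over 42.8 kb, from 167378975 to 167421762, and just 1 of them was strong.

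The strongest member, with a −log10 p of 247.7, lay from 162393016 to 162394395, 9.44 Mb after the locus and outside genes. It had 418 reads at its summit, a fold enrichment of 9.24 and a local background of 1.17 times the genome mean, and the nearest RefSeq gene, the lncRNA LOC110674541, began 46364 bp away. The second (−log10 p of 186.6, start at 205717317, open by 200 bp) had the most summit reads of all members, 581, but on a background of 3.40, so that its fold enrichment was 4.50. It lay 29727 bp from the protein-coding gene LOC5577009.

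Several of the strongest peaks shared a gene. Within LOC5566497 (80171581 to 80244068) lay a peak with a −log10 p of 162.3 and 304 summit reads, starting at 80228127. Another of 140.9 with 280 summit reads started at 80231878 in 15 of 20 readings, in a list that leaves this start open by 20000 bp. In the other readings this peak starts 20000 bp further on, beyond the end of the gene. Both peaks stood on a background equal to the genome mean, and the other peaks of the gene were unremarkable (7 in all with a median −log10 p of 7.25). LOC5564956 (28577913 to 29197346) held 59 peaks, among them those starting at 28952445 and 28918590 with −log10 p values of 128.1 and 100.2.

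Of the 20 strongest members, with −log10 p values down to 95.4, 8 lay inside a gene span away from its ends, 5 reached across a gene end and 7 lay outside genes. These are places by the most common reading. The peak of 140.9 counted inside LOC5566497 lies beyond the end of that gene in its other readings. Those across gene ends were at the protein-coding genes LOC5569249, LOC5578993, LOC5578164 and LOC5574121 and at the tRNA gene Trnaa-agc at 2473356 to 2473427, which carries alanine. Inside spans lay also the peaks of LOC5564219, LOC110674766, LOC5564746 and LOC5572676. The peaks at Trnaa-agc and in LOC5564219 each overlap 2 genes, and the gene with the nearest end is named. Outside genes, the nearest were LOC5565263, LOC5571983, LOC110674347, LOC5570409 and LOC110674241, in addition to the genes of the strongest and the second peak. The gene table gives no descriptions, so the products of these genes are not named. Before the locus lay 13 of the 20.

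A high local background and a strong peak were different things. The highest background of any member, 8.55 times the genome mean or 5866 reads in 10 kb, was at a peak that starts at 256062307 within the lncRNA gene LOC110674088. Its summit held 431 reads, more than the strongest peak, yet its fold enrichment was 1.33 and its −log10 p 8.40. A background of at least 2 times the genome mean was found for 781 members or 2.65%, against 3.54% on chromosome 2 and 3.07% on chromosome 3. Without a control, open chromatin and extra copies of a sequence cannot be told apart at such places.

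Gene ends drew a larger share of the strong members than of the weak. A peak was placed at a gene end if at least 10% of it lay within 500 bp outside the start or end of a RefSeq gene, since the table gives neither strand nor exons. By this rule 8.89% of members (2623) lay at a gene end, 52.6% elsewhere in a gene span, and the rest outside genes. On chromosomes 2 and 3 the shares were 9.40% and 54.4% (odds ratios 0.940 and 0.931, Fisher's exact test, two-sided, p = 0.00763 and 7.43e-08, adjusted p = 0.00933 and 1.63e-07). The difference at gene ends did not pass against chromosome 2 alone (Fisher's exact test, p = 0.0587).

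Members at a gene end had a median −log10 p of 11.3 and 99 summit reads, against 7.36 and 86 reads elsewhere in a gene span and 7.57 and 86 reads outside genes. Of those at gene ends 29.8% were strong (exact binomial interval 28.1 to 31.6%), against 8.42% (7.99 to 8.87%) in gene spans and 9.57% (9.04 to 10.1%) outside genes. When members were sorted by −log10 p into 10 equal bins, the share at gene ends went from 4.13% in the weakest to 25.6% in the strongest bin. Strong peaks are wider and so meet more windows. Among members 900 to 1100 bp wide, 5.84% of those below percentile 50 by −log10 p lay at gene ends (4.93 to 6.87%) and 15.7% of those above percentile 90 (12.6 to 19.2%).

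**Figure D4:**
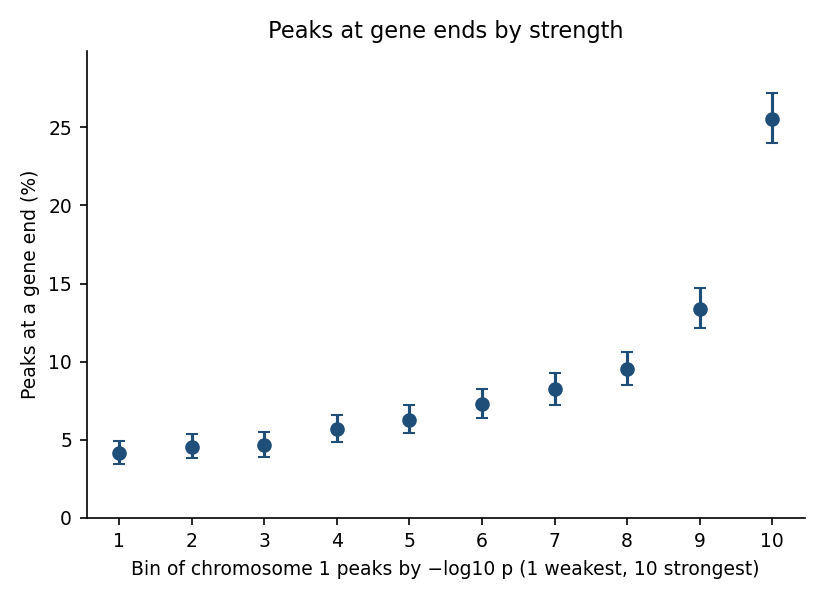
Share of chromosome 1 peaks at a gene end, in % (y axis), in each of 10 equal bins of the peaks by −log10 p (x axis, 1 weakest and 10 strongest), with exact 95% binomial intervals as bars. The share stays at or below 9.54% up to bin 8 and reaches 25.6% in the strongest.

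Protein-coding genes of chromosome 1 had a peak at an end in 61.5% of cases (1957 of 3181, interval 59.8 to 63.2%), against 68.4% (67.1 to 69.6%) on chromosome 2 and 64.3% (62.9 to 65.6%) on chromosome 3. Against both together the odds ratio was 0.808 (two-sided Fisher's exact test, p = 4.54e-07, adjusted p = 1.81e-06 over 4 gene classes, a test added after the values had been seen, like those of the other classes). For lncRNA genes the share was 33.9% (301 of 888), with 35.0% and 34.8% on the other chromosomes (odds ratio 0.957, the same exact test, p = 0.621, adjusted p = 0.621). At least 1 peak in the span was found for 2421 of the protein-coding genes, with a median of 2 peaks, and 503 genes held 10 or more. Of the 429 genes with a span of at least 100 kb, only LOC110681520 (211784677 to 211895454) held none, a gene named after its value was seen, and it lies wholly in a desert.

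The most peaks were found in long genes after the locus. LOC5575787, with a span of 1148 kb, held 145 peaks, followed by LOC5569269 with 123, LOC5578520 with 122, LOC5569913 with 117 and LOC5574581 with 104. In LOC5569913, 10.3 Mb after the locus, the share of strong peaks was 0.855% (1 of 117), whereas in LOC5578520 it was 10.0% (12 of 120). The latter share rests on a separate count of the peaks in the gene, which gave 120 and not 122. Per length, the fullest spans of at least 20 kb were LOC5572780 (7 peaks, 3.02 per 10 kb), LOC5567791 (2.83), LOC5578695 (2.64), LOC5576204 (2.63) and LOC5569250 (2.62). The separate count gave 6 peaks and not 7 in LOC5578695, 11 and not 13 in LOC5569250, and 122 and not 123 in LOC5569269. Genes were not ranked by that count.

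Transfer RNA genes are short genes transcribed by RNA polymerase III, and for them the table gives the amino acid and the anticodon in the symbol. A peak at an end was found for 111 of the 208 tRNA genes of chromosome 1, or 53.4% (46.3 to 60.3%), against 44.2% on chromosome 2 and 44.5% on chromosome 3. Against both together the odds ratio was 1.44 (two-sided Fisher's exact test, p = 0.0253), which did not pass after adjustment over the 4 gene classes of the table (adjusted p = 0.0506). The kinds of tRNA differed widely. Of the histidine genes (Trnah-gug) 12 of 14 had such a peak, of the lysine genes with the symbol Trnak-uuu 8 of 9, and of the isoleucine genes (Trnai-aau) 10 of 16. In contrast, only 2 of 19 alanine genes (Trnaa-agc) and 2 of 11 serine genes (Trnas-aga) had one. The last pair was low on chromosomes 2 and 3 as well, at 11.6% of 69 and 19.7% of 71 genes. Copies of a tRNA gene can lie so close that they share a peak, as in the array from 121744125 to 121758257, where 10 genes, 8 of them for histidine, lay beside 4 peaks. Reads from near-identical copies can be lost to a mapping quality filter, and the part of this in the low shares was not tested.

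**Figure D5:**
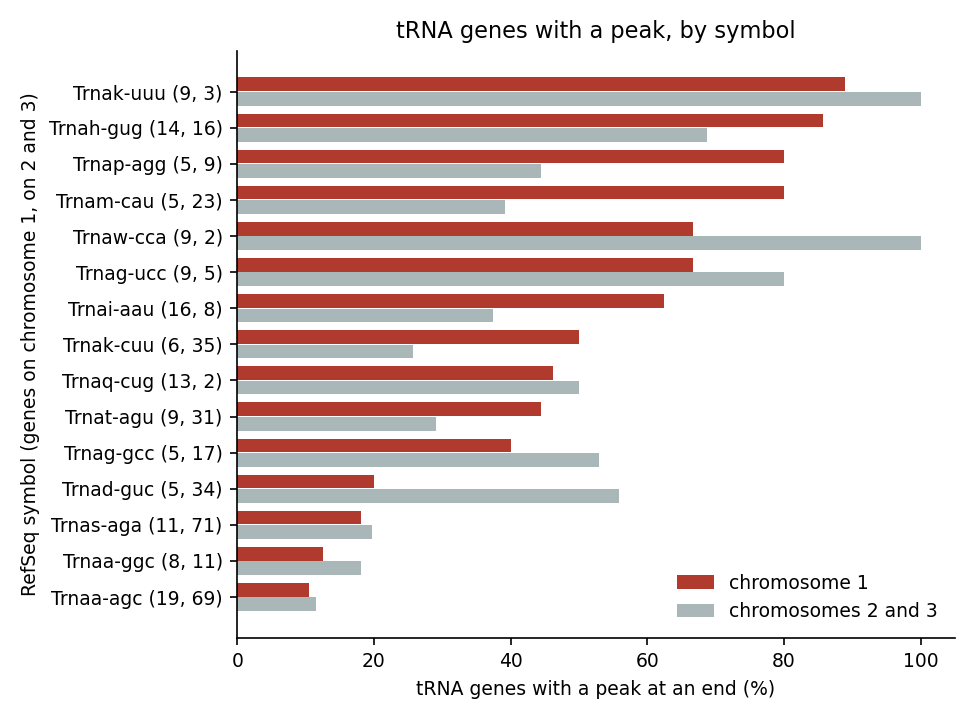
Share of tRNA genes with a peak at an end, in % (x axis), for each RefSeq symbol with at least 5 genes on chromosome 1 (y axis, with the number of genes on chromosome 1 and on chromosomes 2 and 3). Red bars are chromosome 1 and grey bars chromosomes 2 and 3, and symbols without genes on the latter are left out. Trnak-uuu and Trnah-gug stand at the top (88.9% and 85.7%), and Trnaa-agc at the bottom (10.5%).

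Members include 4 peaks that the study matched by shared reads to AaegL3 peaks. Those AaegL3 peaks had acted as enhancers in reporter assays of earlier work. The peak that starts at 3572117, across the end of LOC5574526, was strong (−log10 p of 42.4, 264 summit reads, percentile 98.4 of members). The other three were ordinary by strength and lay inside gene spans. The peak starting at 121501671 in LOC5567734 had a −log10 p of 10.2 and 83 summit reads, that at 220758918 in LOC5565069 had 8.82 and 106 reads, and that at 310314462 in LOC5572676 had 8.69 and 111 reads, which are the percentiles 69.1, 59.5 and 58.9. Within 50 kb of the 4 matched peaks there were 10, 8, 10 and 15 other peaks.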

How the data were processed

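By the study's methods and the submitters' processing notes, reads of the 3 replicates were cleaned with Trimmomatic, aligned to AaegL5 with BWA, filtered with SAMtools at a mapping quality of at least 10 and pooled, and peaks were called with MACS2 (p of 0.01, extension 550 bp, mappable genome 1240 Mb, no control). For the tool versions: not given in the sources used here. The deposited lists give each peak's positions, a score (10 times the −log10 p), the −log10 of p and of q, and a fold enrichment, which is a ratio over the background. These are the authors' values, with no depth per replicate.

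In the AaegL5 list each 3 reads as 5. Strengths were read as the values that whole read numbers at the summit and in 10 kb allow under the MACS2 formulas, with q to choose among them. Positions were read so that peaks stayed in order, at least 99 bp apart and 550 to 7000 bp wide, with readings weighted by how common each width is in the AaegL3 list, and 20 readings were drawn. Strengths of 3 peaks, on chromosomes 2 and 3, stayed unread. The recovery was tested on simulated data made by changing the digits of the AaegL3 list in the same way, with its contigs set end to end. The width weights came from that same list, so for positions this was not an independent test.

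Tests were two-sided (100000 permutations of windows, otherwise exact), with Benjamini-Hochberg adjustment over 11 comparisons, and apart from these over 4 gene classes. Alternatives were other limits of strength, gap, cluster, window and gene end, equal weights, and leaving out 20 Mb on each side of the locus. Genes came from the RefSeq table of AaegL5.0, with 4381 on chromosome 1. Named genes were those nearest the 20 strongest peaks, in clusters, in or beside the 10 longest deserts, with most peaks in total or per length, and at peaks matched to reporter-tested enhancers. Of the planned gene lists only tRNA genes could be formed, since other symbols carry no description. The members and lists were chosen with earlier results of these data known. The work used numpy 2.4.6, scipy 1.17.1, pandas 2.3.3 and matplotlib 3.10.9.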

Additional observations from a re-analysis of the deposited data

How the results depend on the processing

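Among the alternatives run, the direction changed for clusters only. By Fisher's exact test their odds ratio was 1.06 (p = 0.880, 15 members) with a −log10 p of at least 5 and 1.50 (p = 0.552, 5 members) with gaps of at most 1 kb, against 0.884 (p = 0.669, 26 members). It was 0.827 (exact p = 2.58e-15, 2312 members) with gaps of at most 5 kb, and runs of at least 3 peaks held 2148 members. Runs of at least 8 peaks gave no value. Against chromosome 3 alone the median −log10 p differed by 0.12 (permutation p = 0.158), and against chromosome 2 alone the odds ratio at gene ends was 0.953 (p = 0.0587). The cause was not tested. Single chromosomes were added as comparisons after the data had been seen. Counts moved with their limits: 430 gaps of at least 50 kb and 5 of at least 200 kb against 62 deserts, 313 and 7643 members in the top 1% and 25% against 3174 strong ones, and 3771 and 11878 gaps of at most 1 and 5 kb against 5979. A summit in the window left 981 members at gene ends against 2623. No paired analysis was possible because the replicates were pooled before peaks were called, and for the same reason no replicate could be left out.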
